A study of Bos taurus with 8 samples.

Results

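Peripheral blood mononuclear cells (PBMC), the blood fraction that holds T, B and NK lymphocytes and monocytes, were compared between normal crossbred cows and normal Tharparkar cows, the Tharparkar being a zebu breed of the Indian dry plains and the crossbred carrying more than 1 breed. The comparison used the 2 arrays titled normal crossbred (R1 and R2) and the 2 titled normal Tharparkar (R1 and R2), that is 4 of the 8 arrays of the series. The other 4 are of lame crossbred cows and hold 2 RNA samples, lame R1 and lame R2, on 2 arrays each. They entered the fit only as a measure of spread, and their levels are printed beside some genes. Below, the crossbred without a stated condition means the normal crossbred arrays. The labels give the breed group and the condition (normal or lame) of each array, and no treatment. Age, parity, the breeds behind the cross, and whether an RNA came from 1 cow or from a pool are not given in the sources used here. Per the labels, RNA samples were run as technical duplicates, and the normal titles carry a single number, so R1 and R2 of a normal group may be 1 RNA measured on 2 arrays. A difference between the groups is then also a difference between 2 RNA samples, and breed, animal and time of sampling cannot be told apart.

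Zebu and taurine cattle descend from separately domesticated aurochs populations and differ in coat, heat tolerance, tick burden and in the alleles of their immune genes, above all the major histocompatibility complex (in cattle, BoLA). In PBMC, T cells carry the CD3 complex with CD4 or CD8, NK cells and cytotoxic T cells share granule genes, B cells carry CD79A and MS4A1 (CD20), and monocytes carry CD14 and CSF1R. Such preparations also retain some platelets and, less often, granulocytes, so that transcripts of these cells are found among those of mononuclear cells.

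Signal was read on 1-colour Agilent arrays, and a level is the log2 of the processed spot intensity minus the array's 75th percentile. Levels therefore compare between arrays for the same gene, and not between genes. Between 52.7% and 57.6% of the 43653 noncontrol probes were well above background on the 4 normal arrays. Levels correlated across genes at 0.997 between the crossbred arrays and at 0.995 between the Tharparkar arrays. The lymphocyte and monocyte markers CD3E, CD79A, MS4A1, CD14 and NKG7 were well above background on all 4 normal arrays, as were the granulocyte receptors CXCR1 and CXCR2, the platelet gene PF4 and the haemoglobin gene HBB. The epithelial keratin KRT5 was left out by the filter on dim probes. The reference genes ACTB, GAPDH and B2M differed by -0.28, -0.03 and -0.10 between the groups on the log2 scale, none past the test. PTPRC, the other reference gene, was higher in the crossbred by 0.54 and passed.

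Of 14967 genes measured, 2862 (19.1%) passed limma's test at an adjusted p under 0.05, with 1787 (11.9%) higher and 1075 (7.18%) lower in the crossbred. Differences of at least 2-fold were found for 2858 genes (19.1%), and 1851 (12.4%) had both. For scale, lame R1 and lame R2, which share a breed group and a condition, differed by at least 2-fold at 2261 genes (15.1%). The median absolute log2 difference was 0.44 between the normal groups, 0.49 between lame R1 and lame R2, and 0.11 between the 2 arrays of either normal group. The typical difference between the normal groups was thus no larger than that between the 2 lame RNA samples. The lame difference also held a shift, its signed median being 0.18 against 0.0063 between the normal groups, and sizes without that shift were not computed. On slide 1 the median absolute difference was 0.45 between the normal groups and 0.46 between the lame samples. On slide 2 it was 0.44 and 0.55. Differences of at least 8-fold were found for 206 genes between the normal groups and 43 between lame R1 and lame R2. The filter favours the first count, since it keeps genes bright in only 1 normal group and not those bright in only 1 lame RNA sample. Over the 12958 genes well above background on all 8 arrays, 47 and 3 genes differed at least 8-fold, and the median absolute differences were 0.40 and 0.47. With duplicates averaged, so that R1 and R2 of a normal group counted once, 385 genes (2.57%) passed, 234 (1.56%) higher and 151 (1.01%) lower. In that fit every gene has 1 shared variance and a call depends on size alone, the smallest called difference being 2.48 on the log2 scale. The 4 arrays of the normal groups did not overlap for 12330 genes (82.4%), so non-overlap alone says little here. Leaving out any 1 normal array gave between 511 and 625 higher calls and between 214 and 248 lower calls, with a lone array standing for its group. Leaving out the array lame R2_2, the brightest of the series, gave 2332 higher and 1641 lower calls.

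**Figure D1:**
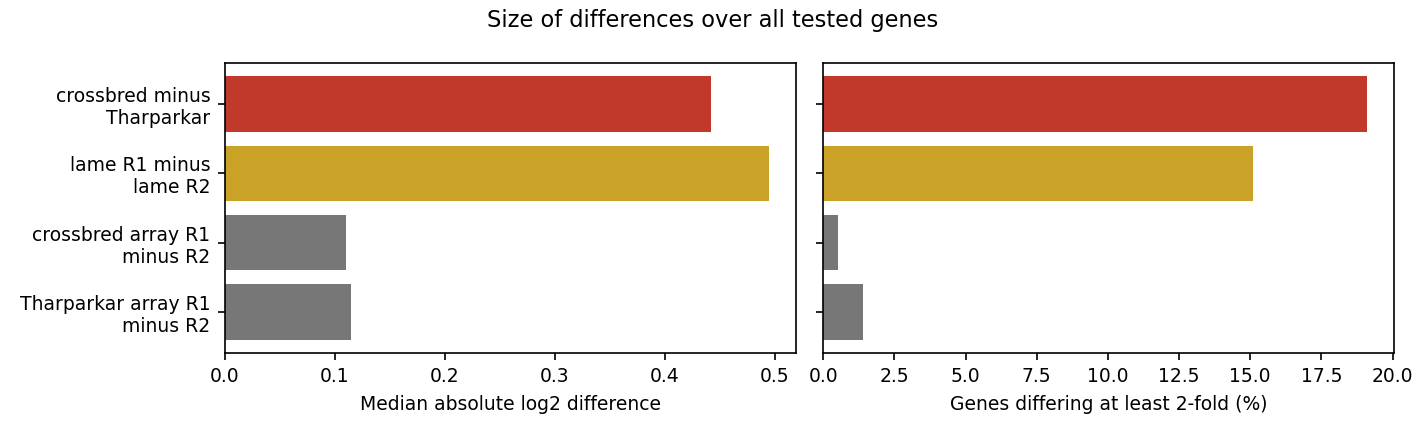
Bars give the median absolute log2 difference (left) and the percentage of genes that differ at least 2-fold (right) over the 14967 genes for 4 pairs. The median of 0.44 between the normal groups lies below the 0.49 between the lame RNA samples and above the 0.11 between duplicate arrays.

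Altogether 188 genes were picked by rule for naming (the largest differences, the largest bounds, the leading members of each gene list and the defining markers), of which 175 passed the test. Of these, 162 kept their direction, and 35 also stayed past the threshold, under every alternative that gives them a value. The filter for all 4 normal arrays gives one for 145 of the 175, which leaves out the genes that are dim in 1 group. The 35 comprise S100A13, S100A14, PRSS2, NUP210, COL18A1, DNM1, OSBP2, TSR2, RAB27B, MGRN1, SOX4, SLC43A1, ZNF304, KRT24, BOLA-DQA5 and LOC100847738 among the named genes higher in the crossbred, and PRSS57, COL6A1, ITM2C, PYROXD2, TNFAIP6, RIN2, FAM229B, AMIGO2, CRYGS, DUSP5, KLRC1 and CXCL5 among those lower, and 7 array features without a gene symbol. Every other gene called higher or lower in the following lost its call in at least 1 alternative, in most cases with duplicates averaged or with a normal array left out.

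Some genes were measured in only 1 of the groups. Well above background on both crossbred arrays and with no probe so on either Tharparkar array were 626 genes, 265 of them called. The converse held for 253 genes, 102 of them called. Such genes made up 12.8% of the called genes and 5.87% of all genes. They passed the filter only through the group where they are bright, so their direction was largely set beforehand. The list counts and medians below include such members. Well above background on all 4 normal arrays were 26 of 28 T cell identity members and 17 of 22 NK and cytotoxic members. The numbers were 20 of 27 for cytokines, 23 of 28 for serine proteases and serpins, and 18 of 25 for the matrix list. For genes dim in 1 group a fold change has only a lower bound, which sets the bright group against the dimmest signal that still counts as above background.

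The largest named difference was at BOLA-DQA5, which codes for an alpha chain of the MHC class II molecule DQ, the dimer that presents peptides to helper T cells. Its level was 3.81 on both crossbred arrays and -6.57 and -6.27 on the Tharparkar arrays. In processed intensity this was 3505 and 3521 against 2.26 and 2.70, the latter not well above background, which makes it at least 276-fold higher in the crossbred. The gene passed the filter through the crossbred arrays alone, so its direction was largely set beforehand. Its adjusted p of 6.1e-05 in limma's test is for the difference with the dim signals included, and not for the bound. The second probe of the gene differed by 9.87 on the log2 scale. Lame R1 and lame R2, also crossbred, had levels of -6.69 and -5.99 and were not well above background on any of their 4 arrays, so the signal was seen on the normal crossbred arrays alone. DQA genes are highly polymorphic, and their number differs between BoLA haplotypes, so that copies and alleles can share or miss a probe. The beta chains of the same dimer differed far less. BOLA-DQB had levels of 4.63 and 4.47 in the crossbred and 4.35 and 4.10 in the Tharparkar, and BOLA-DQB1 had 6.41 and 6.33 against 6.31 and 5.61. Neither passed the test (log2 differences of 0.33 and 0.41).

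The rest of the class II list leaned the other way. Of 16 measured members, 2 were higher (BOLA-DQA5 and LGMN) and 5 lower in the crossbred, in all 43.8% against 19.1% of all genes. The median log2 difference of the list was -0.49 against 0.0063 over all genes. BOLA-DYB, a class II beta chain found in cattle and other ruminants, had levels of -1.72 and -1.64 in the crossbred and 0.59 and 0.38 in the Tharparkar, a difference of -2.17 ± 0.30 (n = 2 arrays a group, adjusted p = 0.0036). Here and below, ± gives the standard error (SE) of limma's fit to all 8 arrays. It includes the spread between the lame arrays and is not the spread within the 2 compared groups alone. BOLA-DOB, which codes for a chain of the DO modulator of peptide loading, stood at 1.45 and 1.26 against 3.25 and 3.23 (difference -1.89 ± 0.34). BOLA-DMB, a chain of the DM peptide exchanger, stood at 4.03 and 4.07 against 5.51 and 5.35 (-1.38 ± 0.37). In each of these genes both crossbred arrays lay below both Tharparkar arrays, and the groups did not overlap for 82.4% of all genes. The classical chain BOLA-DRA did not pass (difference -0.85), its Tharparkar arrays being 7.56 and 6.35 and thus far apart, nor did the invariant chain gene CD74 (-0.53). LGMN, a lysosomal protease that trims antigens, was higher by 0.80 with its brightest probe and lower by 0.35 as the mean of its probes. With a normal array left out, 1 to 2 list members were called higher and 1 lower.

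The class I list holds the heavy chains, the peptide transporter TAP and the peptide loading complex. Of its 20 members 0 were higher and 2 lower, in all 10% against 19.1% of all genes. The 2 were PSMB10, an immunoproteasome subunit (-0.92), and ERAP1, which trims peptides in the endoplasmic reticulum (-0.72). The other probes of ERAP1 differed by 0.66 and -0.16, so its probes disagree. B2M, the light chain of class I, differed by -0.10 and TAP1 by -0.70, neither past the test.

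The second large difference was in the S100 family of small calcium-binding proteins. S100A13, which takes part in the release of growth factors that lack a signal peptide, had levels of 4.70 and 4.54 in the crossbred and -3.73 and -3.05 in the Tharparkar. The processed intensity was 6496 and 5857 against 16.1 and 25.1, all well above background, a difference of 8.02 ± 0.42 or 259-fold (adjusted p = 0.00012). Only 1 probe of S100A13 was kept. Lame R1 and lame R2 stood at 4.14 and 3.22, near the normal crossbred. S100A14, an S100 protein best known from epithelia, had levels of -0.21 and -0.26 in the crossbred but no signal well above background on either Tharparkar array, at least 16.7-fold higher, and its second probe differed by 3.61. Lame R1 and R2 stood at -2.58 and -2.42 for S100A14. S100A1, a regulator of calcium handling, stood at 1.47 and 1.23 against 0.26 and 0.08 (1.18 ± 0.22, adjusted p = 0.012).

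These genes lie side by side: in the RefSeq gene order of assembly ARS-UCD2.0, S100A13 sits between S100A1 and S100A14. The next genes outwards did not pass the test, namely CHTOP (0.08) and SNAPIN (-0.10) beyond S100A1, and S100A16 (0.0030) and S100A2 (-1.44) beyond S100A14. The granulocyte and monocyte S100 genes differed little, with S100A8 at -0.11, S100A9 at 0.16 and S100A12 at 0.31. Of 21 measured S100 and annexin genes, 3 were higher and 1, ANXA7 (-0.83), was lower, with a median of 0.14. In all 19.0% of the list was called against 19.1% of all genes. Over the named genes with the largest differences, 38 tested genes lay directly beside 29 of them, and 8 of the 38 were called in the same direction as the gene they adjoin and 2 in the other. Without the S100 genes, which adjoin each other, 5 and 2 of 34 were called, in all 20.6% against 19.1% of all genes.

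**Figure D2:**
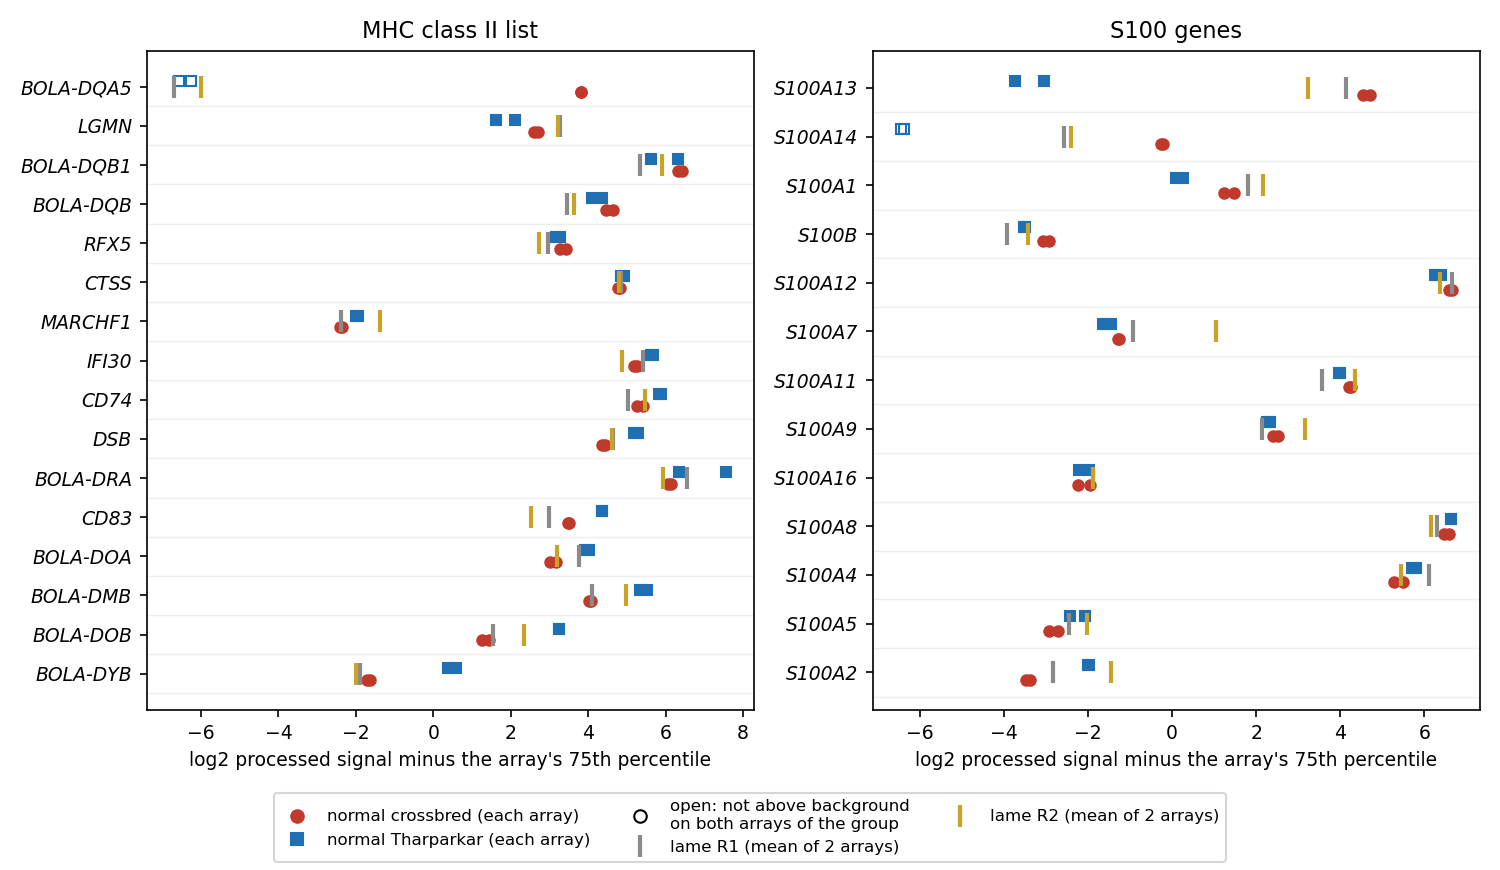
Each symbol is the level of a gene on 1 array (log2 processed signal relative to the array's 75th percentile) for the MHC class II list (left) and the S100 genes (right), with the mean of lame R1 and of lame R2 as ticks; levels compare within a row only. BOLA-DQA5 stood at 3.81 in the normal crossbred alone, and S100A13 was low in the Tharparkar alone, at -3.73 and -3.05.

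Other genes measured in the crossbred and not in the Tharparkar included ZNF304, a KRAB zinc finger factor of the kind that silences chromatin, which had levels of 1.02 and 1.06 in the crossbred and was at least 40.5-fold higher. Its lame levels of 0.99 and 0.47 were near those of the normal crossbred. LOC100847738, a protein-coding gene without a symbol, was at least 26.8-fold higher. KRT24, a keratin of squamous epithelia, had levels of -0.43 and -0.55 in the crossbred and was at least 14-fold higher, and it was not well above background on any lame array either. The features BC133492 and TC427995, which carry no gene symbol, were at least 289-fold and 99.3-fold higher. Measured in the Tharparkar and not in the crossbred was DUSP5, a nuclear phosphatase of the kinase ERK and itself an ERK-induced gene, with levels of -0.51 and -0.81 in the Tharparkar and at least 16.8-fold lower in the crossbred. It was not well above background on the lame arrays either. INHBB, a subunit of inhibins and activins, and PCDH1, a protocadherin of epithelial adhesion, were at least 10.8-fold and 10.5-fold lower in the crossbred. The features TC407926 and BC114668 were at least 23.5-fold and 14.7-fold lower.

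Among genes well above background on all 4 normal arrays, the largest differences after S100A13 were as follows. PRSS2, a trypsinogen gene with near-identical copies, had levels of 3.79 and 3.78 in the crossbred and -1.19 and -1.30 in the Tharparkar, a 32.5-fold difference (5.02 ± 0.17, adjusted p = 4.7e-05). Its lame levels were 2.62 and 2.44. NUP210, a membrane protein of the nuclear pore, stood at 1.99 and 2.24 against -3.10 and -1.74 (4.54 ± 0.45), its Tharparkar arrays differing from each other by more than most duplicates. COL18A1, a basement membrane collagen and the source of endostatin, stood at 3.15 and 3.04 against -0.99 and -1.11 (4.15 ± 0.16), with its lame levels of 0.71 and 0.63 between the groups. Its other probes differed by -0.11, 4.19 and 1.95, so the probes of the gene disagree.

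DNM1, a GTPase of vesicle scission that is best known from neurons, was at 1.5 and 1.48 against -2.32 and -2.36 (3.84 ± 0.34). OSBP2, an oxysterol-binding protein, was at 0.97 and 0.94 against -2.71 and -3.0 (3.81 ± 0.36), and TSR2, a chaperone of ribosome assembly, at 0.65 and 0.53 against -3.15 and -3.14 (3.74 ± 0.42). A2M, a protease inhibitor of plasma, had 3 probes that differed by 3.53, 2.43 and 3.81. RAB27B, a GTPase of granule secretion that is abundant in platelets, stood at -0.17 and -0.16 against -3.65 and -3.48 (3.40 ± 0.18). SOX4, a factor of lymphocyte development, stood at 1.08 and 0.98 against -2.19 and -2.33 (3.29 ± 0.20). For all 6 genes the lame levels were nearer to the normal crossbred than to the Tharparkar. This did not hold for SLC43A1, an amino acid transporter, or for FGF13, an intracellular fibroblast growth factor. SLC43A1 was at -0.11 and -0.23 in the normal crossbred, -3.42 and -3.40 in the Tharparkar and -2.80 and -2.36 in the lame RNA samples. FGF13 was at -0.69 on both normal crossbred arrays, -3.86 and -3.87 in the Tharparkar and -3.90 and -4.08 in the lame RNA samples.

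PRSS57, a serine protease of neutrophil granules, led the genes lower in the crossbred, with levels of -3.26 and -3.65 against 1.08 and 0.97 in the Tharparkar (-4.48 ± 0.59, adjusted p = 0.0031), and its second probe differed by -3.90. The lame RNA samples stood at 0.80 and -0.73 for PRSS57, nearer to the Tharparkar. COL6A1, a microfibrillar collagen, stood at -2.34 and -2.47 against 1.12 and 1.13 (-3.53 ± 0.16), although its second probe differed by only -0.59. ITM2C, a membrane protein abundant in plasma cells and plasmacytoid dendritic cells, stood at -0.87 and -0.96 against 2.54 and 2.56 (-3.47 ± 0.18), and its second probe by -3.46. RIN2, a RAB5 exchange factor found in monocytes, stood at -0.83 and -0.82 against 2.50 and 2.25 (-3.20 ± 0.39), and its second probe differed by -3.21.

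TNFAIP6 (TSG-6), a hyaluronan-binding protein induced by TNF and IL-1, stood at -3.89 and -4.11 in the normal crossbred and -0.74 on both Tharparkar arrays (-3.26 ± 0.19). The lame RNA samples stood at -0.64 and -0.66 for TNFAIP6, so the normal crossbred was the low group of the series. CRYGS, a lens crystallin, was at -1.81 and -1.83 against 1.18 and 1.00, and higher still in the lame RNA samples at 3.16 and 2.67. CD70, the ligand of the T cell costimulator CD27, was at -4.11 on both crossbred arrays against -0.92 and -1.07 (-3.11 ± 0.35). AMIGO2, an adhesion protein, was at -0.43 and -0.12 against 2.51 and 2.81 (-2.94 ± 0.21), and SERPINB4, a serpin with near-identical copies, was at -1.70 and -1.63 against 1.96 and 1.87 (-3.58 ± 0.67).

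**Figure D3:**
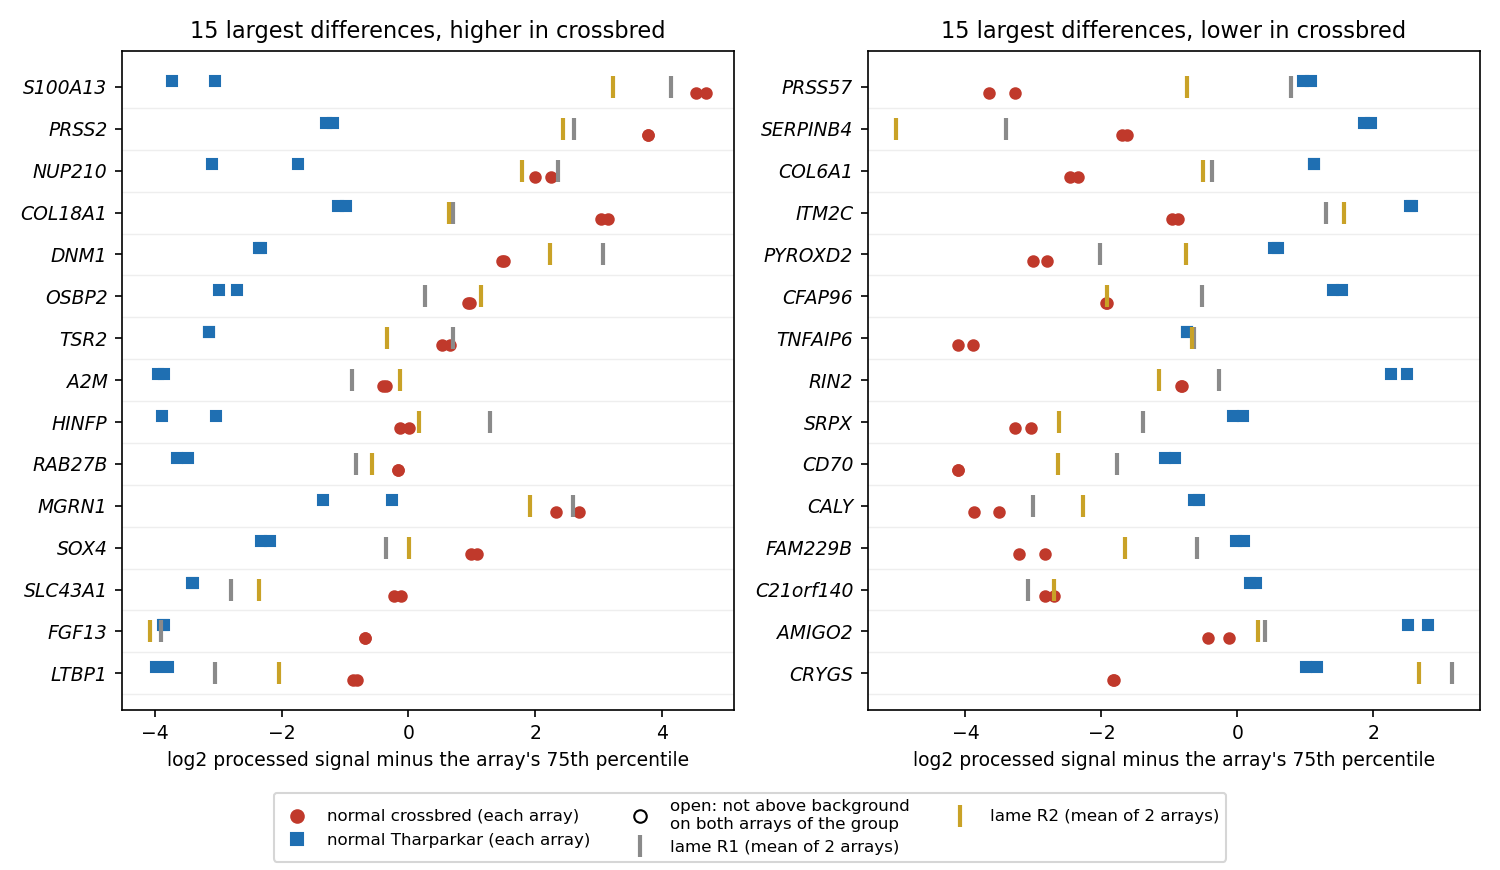
Levels (log2 processed signal relative to the array's 75th percentile) of the 15 named genes with the largest differences in each direction, with 1 symbol per normal array and ticks for the means of lame R1 and lame R2; levels compare within a row only. S100A13 stood at 4.70 and 4.54 against -3.73 and -3.05, and PRSS57 at -3.26 and -3.65 against 1.08 and 0.97.

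T cell genes stood higher in the crossbred. Of 28 measured genes of T cell identity, 17 were higher and 1 lower in the crossbred, against 11.9% and 7.18% of all genes, and their median log2 difference was 1.07 (1.02 on slide 1 and 1.07 on slide 2). Between lame R1 and lame R2 the median was -0.15. IL7R, the receptor for the survival factor interleukin 7, had levels of -0.09 and -0.16 in the crossbred and -2.04 and -2.05 in the Tharparkar (1.92 ± 0.20, adjusted p = 0.0013). CD3G, a signalling chain of the T cell receptor, stood at 3.31 and 3.16 against 1.63 and 1.51 (1.66 ± 0.29), and the kinase FYN at 2.99 and 3.17 against 1.42 and 1.62 (1.56 ± 0.16). The coreceptors CD8A (1.13 ± 0.15), CD8B (1.43 ± 0.32) and CD4 (0.74 ± 0.15), the kinase LCK (1.34 ± 0.17) and the lineage factor GATA3 (1.33 ± 0.28) were also higher. The lame crossbred RNA samples stood at -0.73 and -0.36 for IL7R, nearer to the normal crossbred. They lay between the normal groups for CD3G (1.89 and 2.55) and FYN (2.32 and 2.35), and below both for CD8A (2.81 and 2.93). CD3E, at 0.79 and 0.96 against 0.06 and -0.12, did not pass (adjusted p = 0.060).

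CD5, a brake on antigen receptor signals that is also found on some B cells, was the T cell gene lower in the crossbred, at 1.23 and 0.85 against 2.21 and 2.01, but its second probe differed by only -0.06. With a normal array left out, 6 to 9 T cell genes were called higher and 0 lower, and with duplicates averaged 0 passed in either direction. In each of the 37 lists the counts called in either direction were no higher than those printed when a normal array was left out. The array measures bulk RNA, so fewer cells of a type and less RNA per cell cannot be told apart.

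Of 17 helper and regulatory factors, 7 were higher and 1 lower, in all 47.1% against 19.1% of all genes. PDCD1, which codes for the inhibitory receptor PD-1, stood at 2.41 and 2.14 against 0.44 and 0.38 (1.86 ± 0.17, adjusted p = 0.00078), and its second probe differed by 1.88. Its lame levels of 0.88 and 1.04 were nearer to the Tharparkar. CCR4, a homing receptor of helper 2 and regulatory cells, was higher by 1.40 ± 0.17 and STAT4, which carries the interleukin 12 signal, by 1.38 ± 0.31. IRF4, a factor of activated lymphocytes and plasma cells, was lower by 1.29 ± 0.31, its levels being -2.34 and -2.45 against -0.94 and -1.27. Gamma-delta T cells, which are abundant in cattle and carry WC1 scavenger receptors, had 7 measured genes, 1 higher and 1 lower (28.6%). CD163L1, of the WC1 family, was higher by 1.74 ± 0.42, while the WC1 genes WC-7 and WC1.3, at 1.42 and 1.02, did not pass. The other probes of CD163L1 differed by 1.73 and 0.13.

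Genes of NK and cytotoxic cells followed the T cell genes, with 12 of 22 higher and 1 lower, in all 59.1% against 19.1% of all genes. The median of the 22 was 1.37 (-0.22 between lame R1 and lame R2), and 17 of them were well above background on all 4 normal arrays. NKG7, a protein of cytotoxic granules, had levels of 5.42 and 5.36 in the crossbred and 4.19 and 4.10 in the Tharparkar (1.25 ± 0.14, adjusted p = 0.0019). SAMD3 stood at -1.20 and -1.16 against -3.37 and -3.25 (2.13 ± 0.19), CTSW, a protease of cytotoxic lymphocytes, at 2.81 and 2.76 against 0.86 and 0.90 (1.90 ± 0.17), and perforin (PRF1) at 1.91 and 1.90 against 0.60 and 0.49 (1.36 ± 0.22). The lame RNA samples stood at 3.91 and 3.99 for NKG7, below both normal groups, and at -1.85 and -1.57 for SAMD3, between them. Granzyme B (GZMB) differed by 0.32 and did not pass, nor did the NK receptor NCR1 (0.13). KLRD1 (CD94) and EOMES, a factor of cytotoxic lymphocytes, were not well above background in the Tharparkar and were at least 2.23-fold and 2.61-fold higher. Both turned with another background correction (normexp), to log2 differences of -0.31 and -0.21, as did the chemokine XCL1 (0.94 to -0.12). KLRC1, the partner of KLRD1, went against the list, not being well above background in the crossbred and at least 2.25-fold lower there. KLRC1 and KLRD1 belong to a gene family with close copies in cattle, so their probes may be shared. The list median fell to 0.42 with normexp, and 6 to 8 genes were called higher with a normal array left out.

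Of 16 B cell genes, 0 were higher and 3 lower, a share of 18.8% against 19.1% of all genes, with a median of -0.23. CD79A, at 5.31 and 5.53 in the crossbred against 5.70 and 5.38 in the Tharparkar, overlapped, and MS4A1, at 4.88 and 4.74 against 5.36 and 5.22, did not pass. SPIB, a factor of B cells and plasmacytoid dendritic cells, was at 1.61 and 1.31 against 3.23 and 3.13 (-1.72 ± 0.26) and TNFRSF13C, the receptor for the B cell survival factor BAFF, was lower by 1.15 ± 0.24. The second probe of SPIB differed by -1.37 and that of TNFRSF13C by only -0.21. Of 14 plasma cell genes, 1 was higher and 3 lower (28.6%). The joining chain gene JCHAIN differed by 0.03 and MZB1 by 0.19, whereas XBP1, the factor of the secretory programme, was lower by 0.69 ± 0.19. The other probes of XBP1 differed by -0.04 and -0.24.

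Of 33 monocyte genes, 2 were higher and 6 lower, in all 24.2% against 19.1% of all genes, with a median of -0.39, and the defining markers CD14 (-0.07) and CSF1R (-0.20) did not pass. NR4A1, an orphan nuclear receptor of patrolling monocytes and of activated cells, stood at 2.14 and 1.98 against 4.42 and 4.27 (-2.29 ± 0.28, adjusted p = 0.0024), and its other probes differed by -4.15 and -2.16. CEBPB, a factor of myeloid cells, was lower by 1.03 ± 0.24, and the complement subunits C1QA and C1QB by 0.80 ± 0.15 and 0.66 ± 0.17. CX3CR1, the fractalkine receptor of NK cells, cytotoxic T cells and non-classical monocytes, went the other way at 4.77 and 4.72 against 3.18 and 3.23 (1.54 ± 0.16). Of 13 dendritic cell genes, 2 were higher, LY75 (1.78) and IDO1 (1.27), and 4 lower, in all 46.2%. Among those lower were FSCN1 (-1.42), CD83 (-0.86) and IRF8 (-0.75).

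Of 25 granulocyte genes, 1 was higher and 3 lower, in all 16% against 19.1% of all genes, with a median of -0.47 and one of -0.49 between lame R1 and lame R2. MPO, the peroxidase of neutrophil granules, stood at 0.03 and -0.08 against -1.92 and -2.26 (2.06 ± 0.42), opposite to PRSS57. The interleukin 8 receptor CXCR2 stood at -0.70 and -0.93 against 1.60 and 1.20 (-2.21 ± 0.39), and CXCR1 at 2.31 and 2.28 against 3.21 and 3.31 (-0.96 ± 0.71), which did not pass. The lame RNA samples were far apart for CXCR1, at -0.59 and -2.46, and its second probe differed by -2.31. TGM3, a transglutaminase abundant in bovine granulocytes, was lower by 0.96 ± 0.15, and its other probes differed by -2.59, -2.09 and -2.24. The mean level of the 25 genes was -0.20 on both crossbred arrays and 0.29 and 0.30 on the Tharparkar arrays, and the part of granulocyte transcripts in the other differences was not tested.

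Platelet genes were higher in the crossbred for 8 of 21 and lower for 2, in all 47.6% against 19.1% of all genes, with a median of 0.72. VWF, the adhesive ligand of platelets, stood at -0.83 and -0.79 against -2.66 and -2.76 (1.90 ± 0.23), the thrombin receptor F2R at -1.25 and -0.85 against -2.99 and -3.02 (1.95 ± 0.30) and the integrin chain ITGB3 at -2.22 and -2.20 against -3.69 and -3.78 (1.52 ± 0.20). PF4, a chemokine of platelet granules, was higher by 0.72 ± 0.15, while ITGA2B (0.34) did not pass. THBS1, a matrix protein of platelets and monocytes, was lower by 1.43 ± 0.35. The mean level of the 21 genes was 0.26 and 0.28 in the crossbred and -0.48 on both Tharparkar arrays, so platelet transcripts moved with the groups as T cell transcripts did. Their part in the other differences was not tested. With a normal array left out, 5 to 6 platelet genes were called higher.

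Among 18 erythroid genes, 1 was higher and 1 lower, in all 11.1% against 19.1% of all genes. GATA1 was higher (1.97 ± 0.43) and KLF1 lower (-0.91 ± 0.20), both factors of the erythroid lineage. HBB (0.28) and ALAS2 (0.91), the haem synthesis enzyme, did not pass. Of 15 endothelial, epithelial and stromal genes, 1 was higher, KRT24, and 1 lower, PDGFRA (-1.16), in all 13.3%. The epithelial marker EPCAM (0.97) did not pass.

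Of 27 cytokine genes, 5 were higher and 3 lower in the crossbred, in all 29.6% against 19.1% of all genes. IFNG, the interferon of T and NK cells, had levels of -0.52 and -0.64 against -2.84 and -2.68 (2.18 ± 0.20, adjusted p = 0.00085), and its second probe differed by 1.54. Its lame levels of -2.25 and -1.95 were nearer to the Tharparkar. TNF stood at 2.36 and 2.20 against 1.1 and 0.94 (1.26 ± 0.18) and IL18, which drives IFNG in NK cells, at -1.31 and -1.03 against -2.79 and -2.30 (1.37 ± 0.26). IL2, the T cell growth factor, was at least 1.44-fold higher, but turned to a log2 difference of -0.52 with normexp. IL1B was lower, at 2.77 and 2.72 against 3.89 and 3.77 (-1.09 ± 0.31), and OSM, an interleukin 6 family cytokine of activated myeloid cells, was at least 9.21-fold lower. With a normal array left out, 1 to 3 cytokines were called higher and 1 lower.

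Chemokines had 3 of 16 higher and 5 lower (50% against 19.1% of all genes). CXCL16, a membrane-bound chemokine that binds CXCR6, stood at 2.29 and 2.31 against -0.09 and 0.05 (2.32 ± 0.36), and CXCR6 itself was higher by 0.99. The neutrophil attractants CXCL2, at 1.00 and 1.02 against 3.28 and 3.26 (-2.26 ± 0.18, adjusted p = 0.00056), CXCL3, at -1.61 and -1.27 against 0.56 and 0.57 (-2.0 ± 0.45), and GRO1 (-0.84 ± 0.20) were lower, and CXCL5 was at least 6.59-fold lower. CXCL8 (interleukin 8) stood at 3.92 and 3.79 against 4.53 and 4.60 and did not pass. CCL3, an inflammatory chemokine, was lower by 0.95 ± 0.18. For CXCL2 the lame RNA samples stood at -1.30 and -1.39 and for IL1B at -1.11 and -0.37, below both normal groups.

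Of 29 chemokine receptors and homing genes, 6 were higher and 3 lower (31.0%). Higher were the laminin-binding integrin ITGA6 (1.99 ± 0.55), CX3CR1, CCR4, CXCR6 and the sphingosine phosphate receptors S1PR1 (1.20) and S1PR5 (1.08), which guide T and NK cells out of tissue. Lower were CXCR2, CCR1 (-0.68), a receptor of myeloid cells, and CXCR4 (-0.54). Of 30 interleukin and growth factor receptors, 3 were higher (IL7R, IL21R at 1.19 and TNFRSF25 at 0.86) and 0 lower, in all 10% against 19.1% of all genes. The second probe of TNFRSF25 differed by -0.12.

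**Figure D4:**
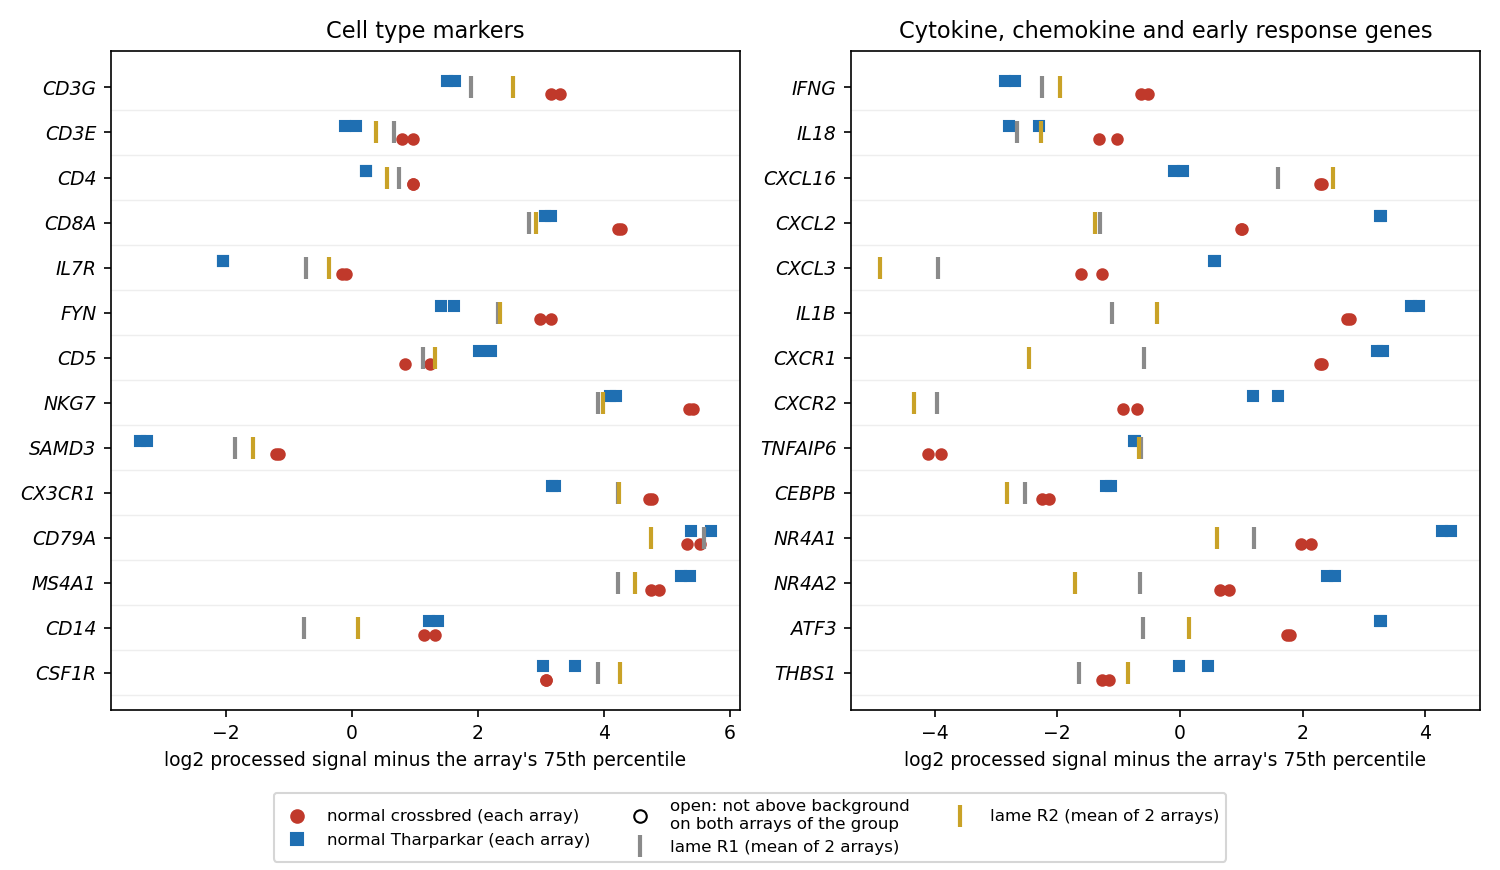
Levels (log2 processed signal relative to the array's 75th percentile) of cell type markers (left) and of cytokine, chemokine and early response genes (right), 1 symbol per normal array, ticks for the means of lame R1 and lame R2; levels compare within a row only. IL7R stood at -0.09 and -0.16 in the crossbred against -2.04 and -2.05, whereas CXCL2 stood at 1.00 and 1.02 against 3.28 and 3.26.

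Of 36 genes of the type I interferon response, 10 were higher and 0 lower, in all 27.8% against 19.1% of all genes, and the median was 0.16. RSAD2 (viperin), an antiviral enzyme, stood at -0.98 and -0.83 against -2.60 and -2.21 (1.5 ± 0.41). The classical effectors ISG15 (-0.16) and MX1 (0.47) did not pass. GBP5 and OAS2, of families with near-identical copies, were not well above background in the Tharparkar, and their directions turned with normexp to -0.30 and -0.47. With any normal array left out, 0 of the 36 passed in either direction.

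Pattern recognition receptors and their adaptors gave 0 of 30 higher and 1 lower, NLRX1 (-1.43 ± 0.40), a mitochondrial regulator of antiviral signalling. TLR2 (-1.12) and TLR4 (-0.76) did not pass. In the NF-kB pathway 1 of 32 was higher, the deubiquitinase CYLD (1.17 ± 0.25), and 2 lower, NFKBID at 2.89 and 2.73 against 4.58 and 4.57 (-1.76 ± 0.37) and BCL10 (-0.85 ± 0.22). The second probes of CYLD and BCL10 differed by only 0.16 and -0.10, whereas the other probes of NFKBID lay between -1.70 and -2.06. The shares of both lists lay below those of all genes, and the median NF-kB difference was -0.0011.

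Complement components and their receptors gave 3 higher and 4 lower of 27, in all 25.9% against 19.1% of all genes. CFB, the protease of the alternative pathway, stood at -0.31 and -0.40 against -2.50 and -2.58 (2.19 ± 0.16, adjusted p = 0.00038), and its relative C2 of the classical pathway was higher by 1.05 ± 0.28. CLU (clusterin), an inhibitor of the terminal complex that platelets also carry, stood at 4.06 and 4.04 against 2.21 and 2.22 (1.84 ± 0.24), with 3 probes in the same direction. The receptor C5AR1 was lower, at -1.10 and -1.31 against 0.36 and 0.29 (-1.53 ± 0.29), as was the inhibitory Fc receptor FCGR2B (-0.67 ± 0.18).

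Serine proteases and serpins gave 8 higher and 2 lower of 28 (35.7% against 19.1% of all genes), with a median of 0.47 that turned to -0.24 with normexp. Beside PRSS2 and A2M, the higher genes included PRSS23 at -0.02 and 0.10 against -2.09 and -2.14 (2.15 ± 0.29), KLK12, a kallikrein that was at least 5.8-fold higher, and prothrombin (F2), at least 3.66-fold higher. PLAUR, the urokinase receptor of myeloid cells, stood at 0.22 and 0.50 against 2.52 and 2.58 and did not pass, the lame RNA samples being far apart at -4.11 and -2.17. In the matrix list, 5 of 25 were higher and 6 lower (44%). Higher beside COL18A1 were TNXB (2.08), MMP3 (1.69), TIMP3 (1.56) and LAMB2 (1.09), and lower beside COL6A1 and THBS1 were BGN (-1.54), MMP19 (-1.48), TIMP2 (-0.85) and ADAMTS1, the latter at least 2.02-fold.

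Immediate early genes, which are switched on within minutes of stimulation, were lower in the crossbred for 10 of 36 and higher for 1, in all 30.6% against 19.1% of all genes, with a median of -0.36 (0.04 between lame R1 and lame R2). Beside NR4A1, NR4A2 stood at 0.65 and 0.80 against 2.53 and 2.40 (-1.74 ± 0.42), ATF3 at 1.75 and 1.79 against 3.27 and 3.28 (-1.5 ± 0.31), CSRNP1 at 1.35 and 1.27 against 2.96 and 2.83 (-1.58 ± 0.35) and IER3 at 0.59 and 0.57 against 1.77 and 1.90 (-1.26 ± 0.16). EGR1 was lower by 0.80 ± 0.17. FOS (-0.62) and JUN (-0.62), the subunits of AP-1, did not pass, and the phosphatase DUSP10 was higher by 1.61 ± 0.32. With a normal array left out, 3 to 4 genes of the list were called lower.

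Among 48 heat shock proteins and cochaperones, 2 were higher and 4 lower, in all 12.5% against 19.1% of all genes. BAG3, a cochaperone of selective autophagy, was higher by 1.21 ± 0.20 and CHORDC1 by 1.00 ± 0.19. The other probes of BAG3 differed by -0.26 and 0.34. HSPA8, the constitutive HSP70, stood at 3.95 and 3.90 against 4.99 and 4.87 (-1.01 ± 0.20), and BAG2, DNAJB6 and HSPB8 were lower by 1.42, 1.47 and 1.05. The stress-induced HSPA1A differed by -0.25 and did not pass. Of 34 genes of the unfolded protein and integrated stress response, 0 were higher and 5 lower (14.7%), among them ATF3, XBP1 and SELENOS (-0.91). The chaperone HSPA5 (0.12) and the factor ATF4 (-0.03) did not pass.

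Antioxidant and redox genes gave 5 higher and 4 lower of 50, in all 18.0% against 19.1% of all genes. SRXN1, which repairs oxidised peroxiredoxins, stood at 1.57 and 1.34 against -0.65 and -0.45 (2.01 ± 0.18, adjusted p = 0.00073). NQO2, a quinone reductase, stood at 1.96 and 1.69 against -0.12 and -0.27 (2.02 ± 0.20). The metallothioneins MT2A and MT1A, which bind zinc and copper and respond to glucocorticoids, were higher by 1.65 ± 0.33 and 1.55 ± 0.28. PYROXD2, a mitochondrial oxidoreductase, was lower by 3.47 ± 0.51, and CYBA, a subunit of the phagocyte oxidase, by 0.75 ± 0.18. HMOX1 (-0.22) did not pass. In the glucocorticoid list 3 of 24 were higher (TLE1 at 2.22 and the metallothioneins) and 2 lower (DDIT4 at -0.96 and CXCR4), in all 20.8%. The classical targets FKBP5 (0.27) and TSC22D3 (0.15) did not pass.

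Cell cycle genes were lower in the crossbred for 12 of 67 and higher for 1, in all 19.4% against 19.1% of all genes, with a median of -0.53 (-0.50 on slide 1 and -0.55 on slide 2) and 0.30 between lame R1 and lame R2. CCNE1, the cyclin of S phase entry, stood at -0.30 and -0.22 against 1.66 and 1.73 (-1.95 ± 0.17, adjusted p = 0.00076). The mitotic genes CDCA8 (-1.59 ± 0.27), SPC24 (-1.19 ± 0.22), UBE2C (-1.05 ± 0.15), CDC20 (-1.03 ± 0.21) and TPX2 (-0.95 ± 0.19) were lower as well. Both crossbred arrays lay below both Tharparkar arrays in each, and the groups did not overlap for 82.4% of all genes. CCND2, the D cyclin of resting and early cycling lymphocytes, was higher by 0.88 ± 0.15. Without the array lame R2_2, 25 of the 67 were lower, and with a normal array left out 1 to 2. Among 35 genes of apoptosis and survival, 4 were higher and 4 lower, in all 22.9% against 19.1% of all genes. BOK (1.97) and FASLG (0.88), which promote death, were higher, and BAX (-1.40), which also promotes it, the survival gene BCL2 (-1.08) and the p53 target CDKN1A (-1.41) were lower.

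Of 41 glycolysis and hypoxia genes, 24.4% passed the test against 19.1% of all genes. Of these, 4 were higher, among them PDK1 at 1.33 and 1.51 against -0.40 and -0.36 (1.80 ± 0.18), and 6 lower, among them the glucose transporter SLC2A1 (-1.16 ± 0.29) and LDHA (-0.66). ANGPTL4, an inhibitor of lipoprotein lipase, was higher by 2.14 ± 0.38 and lipoprotein lipase itself (LPL) lower by 1.09 ± 0.23. In the lipid list 4 of 48 were higher and 2 lower (12.5%), with the fatty acid carrier FABP5 at -1.43 and -1.33 against -2.95 and -3.38 (1.78 ± 0.21). Of 82 subunits of oxidative phosphorylation, 1 was higher and 6 lower (8.54%), with a median of -0.27. Of 41 proteasome genes, 1 was higher and 1 lower (4.88%), with a median of -0.28. Of 79 cytosolic ribosomal protein genes, 0 were higher and 1, RPL3, lower (1.27%). All 3 shares lay below the 19.1% of all genes. The ribosomal median of -0.16 turned to 0.09 with normexp and 0.03 with quantile normalization. These medians were smaller in size than those between lame R1 and lame R2, which were 0.65, 0.40 and 0.59 for the 3 lists. Over all genes the median between lame R1 and lame R2 was 0.18, against 0.0063 between the normal groups.

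**Figure D5:**
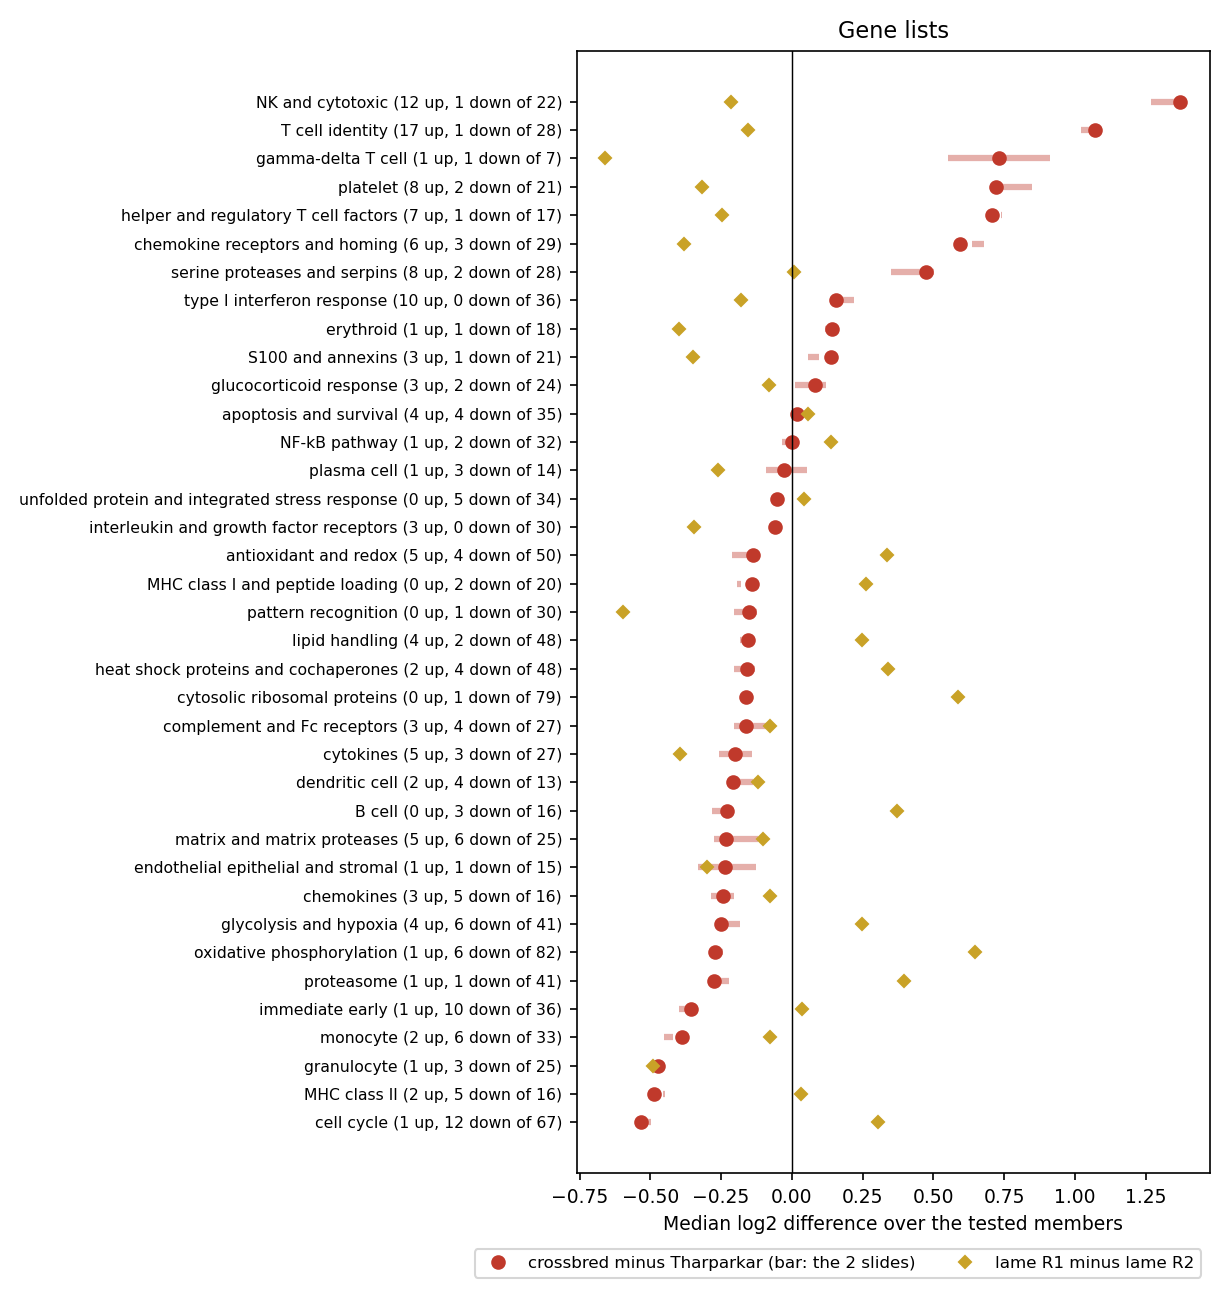
Median log2 difference over the tested members of each gene list, with crossbred minus Tharparkar as circles (the bar spans the differences on the 2 slides) and lame R1 minus lame R2 as diamonds; the counts give members called higher and lower. NK and cytotoxic genes (1.37) and T cell genes (1.07) lay highest and cell cycle genes (-0.53) lowest. Over all genes the median was 0.0063 for crossbred minus Tharparkar and 0.18 for lame R1 minus lame R2.

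Several probes measured some of the genes. Among the 1005 called genes with at least 2 kept probes, 86.2% of the other probes had the sign of the representing probe and 68.2% at least 0.5 of its difference, against 72.8% and 61.8% over all genes with several probes. Of 189 genes that were called and differed at least 8-fold, 158 (83.6%) rested on 1 probe, against 61.5% of all genes, and 64.0% were dim in 1 of the groups. Whether the binding of single probes differed between the breeds was not tested. Disagreement was plain at HINFP, a histone gene regulator (3.40 and -1.40), and MGRN1, an E3 ligase (3.31 and -0.86). CCDC3 differed by 1.69 and its second probe by -2.94, and C5H12orf75 by -0.96 with other probes at 1.91 and 3.65, so that the mean of the probes turned both, to -0.63 and 1.53. RPL3, with 6 probes, turned to 0.17. The second probes of CXCL16, VWF, CCR4 and IRF4 differed by 0.74, 0.58, 0.63 and -0.41, less than the differences printed above. Other probes are given for some genes only, and a gene without them need not have probes that agree.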

How the data were processed

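Total RNA of PBMC was hybridised to 8 Cy3 arrays on 2 slides, each slide holding R1 or R2 of both normal groups. The authors deposited scanner output, whose processed signal intensity was background-subtracted and detrended, per the file headers, and not scaled between arrays. Per the submitters' processing notes, Agilent Feature Extraction 11.5.1.1 was used, whereas the file headers name version 12.0.3.1, and the sources used here do not settle which. Their own table of log2 values, deposited as well by the authors, followed the values computed here after centring of each probe (correlation at least 0.999997) and has medians of -0.07 and -0.12 on the crossbred and 0.02 and 0.09 on the Tharparkar columns. Its direction follows intensity, and its scale and centring are not given in the sources used here.

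Spots were averaged per probe, and log2 processed signal was set relative to the array's 75th percentile over 43653 noncontrol probes. Outlier flags (35 probes) were left out, and 0 spots were saturated. Probes well above background on both arrays of either normal group were kept (24275). Of all probes, 27054 matched 1 RefSeq gene (ARS-UCD2.0, names and order only) and 16599 kept the file's name. Each gene was represented by its brightest probe (14967 genes, 8725 with a symbol).

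The test, 2-sided, was lmFit with eBayes of limma 3.58.1 under R 4.3.3 (Benjamini-Hochberg over all genes, adjusted p under 0.05) on 8 arrays with 3 group means, 5 residual and 2.38 prior degrees of freedom. It was tested on simulated data. Since arrays of an RNA are duplicates, p-values measure the spread between arrays, partly technical, and would be larger if cows were the unit. The number of arrays limits the precision. The R1 deviations of the normal groups correlated at 0.25, and R1 and R2 lay on different slides, so the slide block is also the replicate block. Bounds set the bright mean against the higher of the dim signal and the dimmest signal well above background. Lists (37, with 1052 different genes tested) got counts and medians only. The named genes were the 15 largest called differences a direction, the 8 largest bounds a direction, up to 3 called members a direction of each list, the defining markers, and up to 5 genes with disagreeing probes; HSPA8, TNF, CXCR6 and other list members were added after their values were seen. The members and lists were chosen with earlier results of these data known. The alternatives were normexp (offset 50) on median spot and background signals, since the mean signal column was not used here, quantile normalization, other filters on dim probes, the mean of probes, the slide block, the normal arrays alone, duplicates averaged, the authors' table, a 2-fold threshold and leaving out each array. Sizes of differences over genes well above background on all 8 arrays were added after the data were seen. The values of 1 gene of the interferon list are not reported here.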

Additional observations from a re-analysis of the deposited data

How the results depend on the processing

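The counts were 1787 higher and 1075 lower, and 696 and 315 with no filter on dim probes, 814 and 545 with normexp, and 234 and 151 with duplicates averaged. The 4 normal arrays alone, whose spread may be technical, gave 4525 and 4254, and with the replicate block of R1 and R2 4794 and 4545. Over all 8 arrays with the slide as a block, which pairs the replicate numbers, 1499 and 796 passed. The numbers share a slide and the deviations of the 2 normal groups correlate at only 0.25. Requiring a 2-fold difference left 1195 higher and 656 lower. Leaving out 1 array gave 511 to 2332 higher and 214 to 1641 lower, the highest of both without lame R2_2. The authors' table gave 1807 and 1066. The median of all genes lay at 0.0063 on the log2 scale in the values reported, at -0.09 with normexp, 0.05 with quantile normalization and -0.20 with no filter, so differences under the last are relative to it.

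Named genes turned sign as follows. With normexp, the differences became -0.21 for EOMES, -0.31 for KLRD1, -0.30 for GBP5, -0.47 for OAS2, -0.52 for IL2, -0.12 for XCL1, -0.11 for BCL2L2, -0.28 for PFKM, -0.0056 for PSMA3, -0.0585 for EPCAM, 0.22 for CD79A, 0.11 for CD14, 0.0744 for CSF1R, 0.21 for B2M and 0.20 for GAPDH. With quantile normalization CD79A became 0.0896, GAPDH 0.16 and B2M 0.0818. Averaging each gene's probes, LGMN became -0.35, RPL3 0.17, CCDC3 -0.63 and C5H12orf75 1.53 (adjusted p = 0.0012). Leaving out 1 array, CD79A ranged from -0.28 to 0.0364, CD14 from -0.15 to 0.0215, CSF1R from -0.46 to 0.0467 and B2M from -0.24 to 0.0441, with the positive values found without the Tharparkar array R1 (CD79A, CSF1R, B2M, and CD14 at 0.0038) or without the crossbred array R2 (CD14 at 0.0215). The cause was not tested. Of the 175 named genes called, 53 stayed past the threshold with duplicates averaged, 105 with normexp, 90 with no filter and 75 to 86 with a normal array left out. With the block 150 did.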
